A study of Caenorhabditis elegans with 8 samples.

Results

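The nervous system genes described here are 33 genes that neurons share: the machinery that makes, moves, docks, fuses and recycles synaptic vesicles, the active zone, the dense core vesicles, the calcium channels that trigger release and a few genes used as neuron-wide labels. They were taken by WormBase symbol from a list of such genes, a rule that uses no measured value though the list was drawn up with earlier results of these data known, and are 33 of 46748 genes in the count table. All 33 passed the filter on low counts, among 14272 genes tested. RNA came from whole Caenorhabditis elegans of the wild-type strain N2 after feeding RNAi, in which worms eat bacteria that make double-stranded RNA against a chosen gene. There were 3 hlh-2 RNAi-labelled libraries, 3 labelled lin-32 RNAi and 2 from worms given the empty feeding plasmid L4440. LIN-32 is a basic helix-loop-helix protein of the proneural class and HLH-2 the partner it dimerises with, and the series asks how impairing each alters expression across the genome. Feeding RNAi leaves the gene itself intact and lowers its transcript to a varying degree, and neurons of this worm are known to respond weakly to it. The labels used here do not state the stage of the animals.

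At a synapse, vesicles are filled with transmitter, carried along the axon by a kinesin, tethered at the active zone and primed for fusion. Calcium entering through voltage-gated channels then drives the SNARE proteins of vesicle and plasma membrane to zip together, and the vesicle membrane is retrieved by endocytosis. Neuropeptides take a separate route, in dense core vesicles, in which precursor proteins are cut into active peptides. Nearly every neuron of the worm uses these parts, so they do not point to a single neuron type. Whole-worm RNA does not show which cells a transcript came from. Several also act outside neurons. The L-type calcium channel EGL-19, for one, is the main calcium channel of muscle.

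Total counts ran from 22380739 to 34814808 per library, so that 1 CPM (a count scaled to library size and composition) stood for 22.1 to 35.4 counts. The transcript of hlh-2 did not follow its label. It had 49.0, 48.9 and 54 CPM in the hlh-2 RNAi-labelled libraries, 23.0, 27.8 and 15.6 CPM in the lin-32 RNAi-labelled libraries and 50.6 and 49.0 CPM in L4440. It was lower in the lin-32 RNAi-labelled libraries (log2 fold change -1.16 ± 0.15 SE against L4440, edgeR adjusted p = 0.0041), a call lost without L4440 replicate 2 (-1.19, edgeR adjusted p = 0.068). In the hlh-2 RNAi-labelled libraries it was 0.025 ± 0.15 (SE, edgeR adjusted p = 0.990). The scarce lin-32 transcript had 2.41, 3.40 and 2.06 CPM in the hlh-2 RNAi-labelled libraries, 0.98, 0.68 and 0.76 CPM in the lin-32 RNAi-labelled libraries and 1.5 and 1.42 CPM in L4440, with neither difference from L4440 past the test (edgeR adjusted p = 0.456 and 0.233). Between the hlh-2 RNAi-labelled and lin-32 RNAi-labelled libraries both transcripts were higher under the hlh-2 label, hlh-2 by 2.28-fold (edgeR adjusted p = 0.0017) and lin-32 by 3.28-fold (edgeR adjusted p = 0.0067). The second call was lost without lin-32 RNAi replicate 2 (edgeR adjusted p = 0.053). Groups are therefore named by their labels throughout. Whether libraries of a group were separate cultures is not stated in the labels. The p-values set group differences against the variation among these particular libraries, and that variation may be technical.

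The 33 genes spanned a wide range of levels in the whole worm. On the scale of CPM per kilobase of merged exons, which allows genes of unequal length to be compared, the highest was snb-1, the vesicle SNARE synaptobrevin, with a mean over 8 libraries of 226. It was followed by unc-57, the endophilin of vesicle endocytosis, at 94.7 and by the EPS15-like endocytic gene ehs-1 at 32.5. At the other end stood the RhoGAP-like active zone gene syd-1 at 0.37 and rgef-1, a Ras exchange factor widely used as a neuron-wide label, at 0.31, both in CPM per kilobase. The highest level per kilobase was 736 times the lowest.

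Most of these genes were scarce. Their median level was 2.77 CPM per kilobase, against 8.11 over the 14172 tested genes that have an annotated length, and 10 of 33 lay above that median of all genes. The 4 endocytosis genes were all among the 10 highest, with unc-11 (AP180) at 26.9 and unc-26 (synaptojanin) at 10.6 CPM per kilobase. The neuropeptide-processing enzymes egl-21, a carboxypeptidase, and egl-3, a proprotein convertase, stood at 22.6 and 12 on that scale, well above unc-31 (CAPS) at 0.61, which dense core vesicles need for release. The 3 calcium channel genes were among the scarcer ones, with egl-19 at 1.3, unc-36 at 1.06 and unc-2 at 0.95 CPM per kilobase.

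Levels repeated closely between libraries of a group. In 25 of 33 genes the pooled coefficient of variation within groups was below 10%. The lowest count of a gene in any library was at least 1000 in 5 of them, at least 100 in 23 and at least 50 in 28. The remaining 5 were cpx-1, sad-1, sng-1, syd-1 and rgef-1, with between 18 and 88 counts in each library. In sng-1 and syd-1 the spread within groups was widest (32.8% and 30.7%), while in sad-1 the libraries of a group lay closer together (2.1%) than counting error alone would give on average (13.9%). The libraries do not mark strand, and the exons of 7 of the 33 genes share between 0.074% (unc-36) and 2.49% (unc-64) of their bases with an expressed gene on the other strand.

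**Figure D1:**
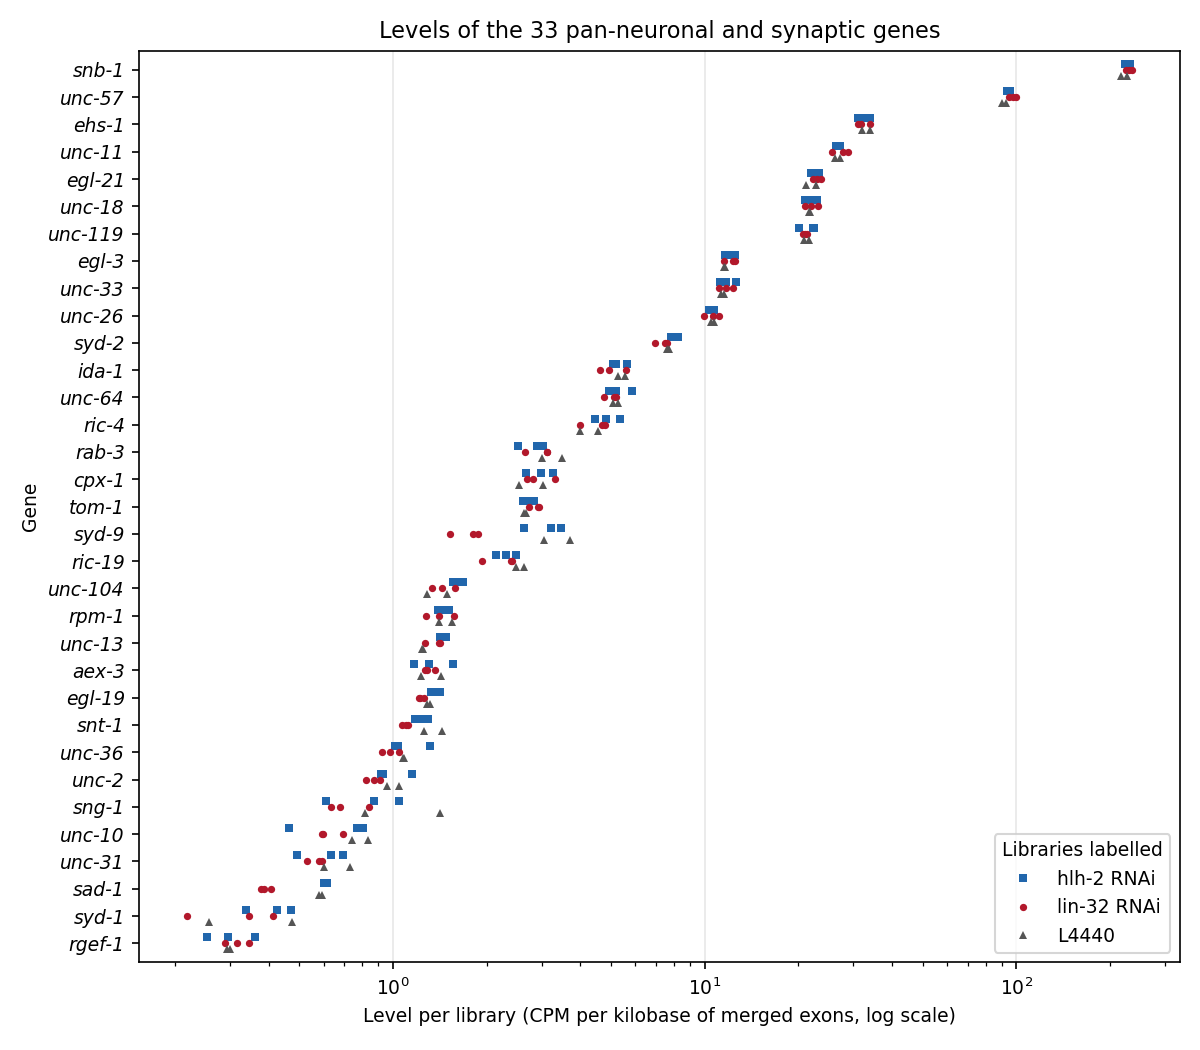
Level of each of the 33 genes in each library, as CPM per kilobase of merged exons on a log axis, ordered by the mean over 8 libraries. Squares are libraries labelled hlh-2 RNAi, circles lin-32 RNAi and triangles L4440. The levels run from 226 for snb-1 to 0.31 for rgef-1, and in most rows the groups lie on top of each other, with syd-9 and sad-1 as rows where the circles stand to the left.

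The hlh-2 RNAi-labelled libraries and L4440 did not differ in any of the 33 genes by the edgeR test. The count was 0 also with DESeq2 and with limma-voom, and 1 gene, unc-13, had an unadjusted p under 0.05. Over all tested genes 0.203% passed with edgeR, 0.343% with DESeq2 and 0.21% with limma-voom, and 6.78% had an unadjusted p under 0.05, so a count of 0 or 1 in 33 stands near the background. The median log2 fold change of the 33 was 0.031, against -6.8e-04 over all tested genes, and 20 lay above 0, against 49.7% of all tested genes.

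UNC-13 is the priming factor without which docked vesicles cannot fuse, and its gene (WBGene00006752; chromosome I, 7422785 to 7454116, plus strand, WBcel235, protein coding) had the smallest p. It had 9.70, 9.80 and 10.2 CPM in the hlh-2 RNAi-labelled libraries, 9.73, 8.73 and 9.66 CPM in the lin-32 RNAi-labelled libraries and 8.57 and 8.53 CPM in L4440. All 6 RNAi libraries lay above both L4440 libraries. The log2 fold change was 0.21 ± 0.091 in the hlh-2 RNAi-labelled libraries (SE, 95% interval 0.012 to 0.41, edgeR adjusted p = 0.711) and 0.13 ± 0.092 in the lin-32 RNAi-labelled libraries (SE, edgeR adjusted p = 0.608). Both comparisons share the same L4440 libraries.

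The kinesin gene unc-104 (WBGene00006831; chromosome II, 6994987 to 7010625, plus strand) encodes the motor that carries synaptic vesicle precursors down the axon. It had 9.27, 8.91 and 8.60 CPM in the hlh-2 RNAi-labelled libraries, 8.72, 7.94 and 7.37 CPM in the lin-32 RNAi-labelled libraries and 8.21 and 7.08 CPM in L4440. The hlh-2 RNAi-labelled libraries lay above both L4440 libraries, while the lin-32 RNAi-labelled libraries overlapped them. The log2 fold change was 0.23 ± 0.11 in the hlh-2 RNAi-labelled libraries (SE, 95% interval -0.0072 to 0.46, edgeR adjusted p = 0.745), and 0.12 without L4440 replicate 2. It was 0.071 ± 0.11 in the lin-32 RNAi-labelled libraries (SE, edgeR adjusted p = 0.847), and -0.035 when L4440 replicate 2 was left out.

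Next by p came ric-4 and rab-3. The gene ric-4 (WBGene00004364; chromosome V, 10261131 to 10270314, minus strand), which encodes the plasma membrane SNARE SNAP-25, had 5.51, 6.62 and 5.99 CPM in the hlh-2 RNAi-labelled libraries and 4.94 and 5.63 CPM in L4440. These ranges overlapped, and the log2 fold change was 0.19 ± 0.13 (SE, edgeR adjusted p = 0.858). The GTPase gene rab-3 (WBGene00004267; chromosome II, 5721767 to 5727853, minus strand), whose product sits on synaptic vesicles, had 4.42, 3.70 and 4.24 CPM in the hlh-2 RNAi-labelled libraries and 5.08 and 4.39 CPM in L4440. These too overlapped, and the fold change was -0.20 ± 0.14 on the log2 scale (SE, edgeR adjusted p = 0.858). Without L4440 replicate 1 the values were 0.10 for ric-4 and -0.094 for rab-3, without L4440 replicate 2 they were 0.29 and -0.30, and without hlh-2 RNAi replicate 2 they were 0.12 and -0.12. The exons of rab-3, which had 111 to 162 counts per library, share 1.71% of their bases with damt-1 on the other strand, which had 578 to 931.

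For many of the 33 genes the data bound the size of any difference between the hlh-2 RNAi-labelled libraries and L4440. In 15 genes the whole 95% interval of the log2 fold change lay within 0.25 of 0, and in 28 within 0.5. The synaptobrevin gene snb-1 was among the tightest, at 0.029 ± 0.036 (SE, 95% interval -0.050 to 0.11). The synaptogyrin gene sng-1, with 19 to 35 counts per library, was among the widest, at -0.36 ± 0.31 (SE, 95% interval -1.03 to 0.30). Its sign rests on 1 library, since without L4440 replicate 1 the value was 0.059. By role the median log2 fold changes were 0.040 for 7 genes of vesicle fusion, 0.054 for 6 of the active zone, -0.085 for 4 of vesicle identity and transport, -0.0045 for 4 of endocytosis, -0.035 for 5 of dense core vesicles, 0.057 for 3 calcium channel genes and 0.039 for 3 axonal and neuron-wide genes. The libraries did not overlap in 6 of 33 genes, against 24.1% of all tested genes, all higher in the hlh-2 RNAi-labelled libraries (egl-19, sad-1, syd-2, unc-104, unc-13 and unc-57), against 11.9% of all tested genes that were higher without overlap, and 0 of 33 were lower without overlap, against 12.2%.

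**Figure D2:**
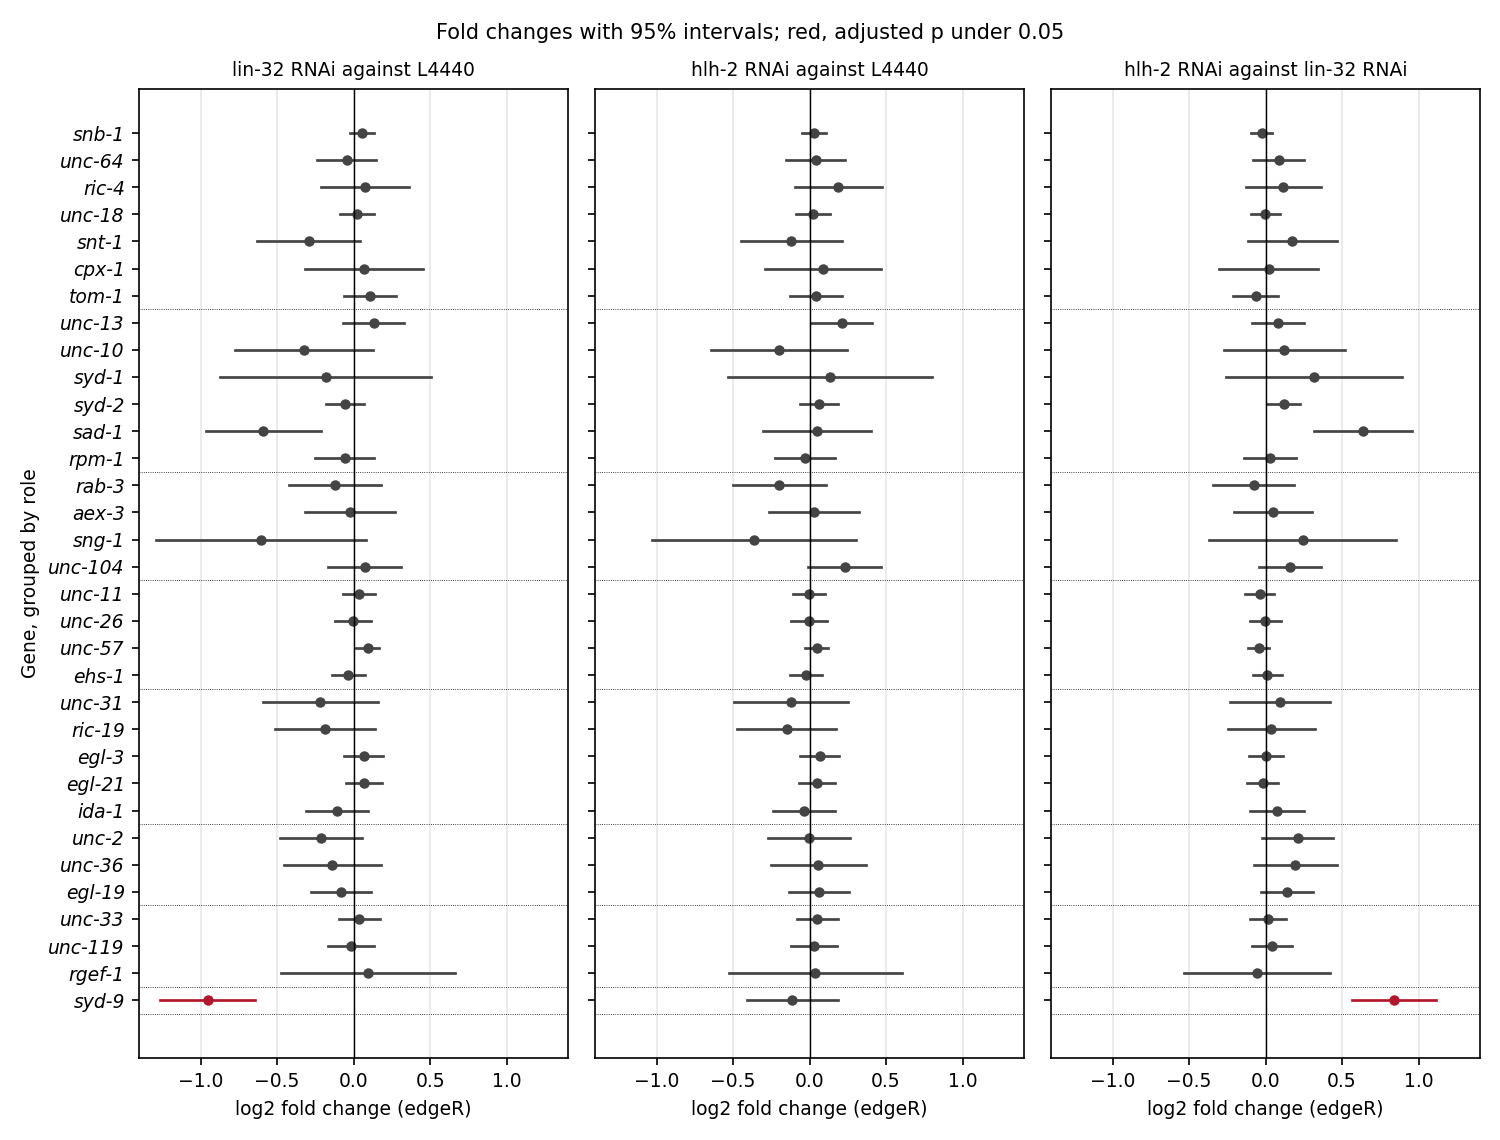
Log2 fold change of each of the 33 genes with its 95% interval, from the edgeR fit, in 3 comparisons: lin-32 RNAi against L4440, hlh-2 RNAi against L4440, and hlh-2 RNAi against lin-32 RNAi. Genes are grouped by role, and red marks an adjusted p under 0.05, which is reached by syd-9 at -0.95 in the first panel and 0.84 in the third, and by no gene in the second.

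Between the lin-32 RNAi-labelled libraries and L4440, 1 of the 33 genes passed the test, against 0.743% of all tested genes: syd-9, which fell 1.94-fold in the lin-32 RNAi-labelled libraries. DESeq2 and limma-voom also called syd-9 alone of the 33, where they called 1.23% and 0.603% of all tested genes. The others that these data place lowest relative to L4440 were the kinase gene sad-1, sng-1, the RIM gene unc-10 and the synaptotagmin gene snt-1, none of which passed. In 19 of the 33 genes the estimate lay within 0.1 of 0 on the log2 scale, where the quartiles of all tested genes were -0.087 and 0.091. Among the 19 were snb-1, syntaxin (unc-64), unc-18 and all 4 endocytosis genes. Other central parts lay outside, such as unc-2 at -0.21 and unc-13 at 0.13, besides unc-10 and snt-1. These are RNA levels of whole animals, in which fewer cells of a type and less RNA per cell cannot be told apart.

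SYD-9 is a nuclear zinc finger protein needed for the normal placing of synaptic vesicle proteins, and is the one gene of the 33 whose product acts in the nucleus and not at the synapse or along the axon. The gene (WBGene00044068; chromosome X, 7218097 to 7226829, plus strand, WBcel235, protein coding) has 8 annotated transcripts with 2884 bases of merged exons, which overlap no exon of another gene. It had 4.39, 5.20 and 5.41 CPM in the lin-32 RNAi-labelled libraries, against 10.7 and 8.79 CPM in L4440. All 3 lin-32 RNAi-labelled libraries lay below both L4440 libraries and below the 3 hlh-2 RNAi-labelled libraries, which had 7.62, 9.27 and 10.02 CPM. The counts behind these values ran from 126 to 326. The log2 fold change against L4440 was -0.95 ± 0.14 (SE, 95% interval -1.26 to -0.64, edgeR adjusted p = 0.0091). Without L4440 replicate 1 the estimate was -0.81 and the call was lost (edgeR adjusted p = 0.126). In the hlh-2 RNAi-labelled libraries the log2 fold change of syd-9 against L4440 was -0.11 ± 0.14 (SE, edgeR adjusted p = 0.934), and 0.032 without L4440 replicate 1.

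The gene sad-1 (WBGene00004719; chromosome X, 13487552 to 13500668, minus strand) encodes a serine/threonine kinase that sets up neuronal polarity and the presynaptic terminal. It had 1.395, 1.3 and 1.33 CPM in the lin-32 RNAi-labelled libraries, against 2.04 and 2.0 CPM in L4440. The groups did not overlap, and the 3 hlh-2 RNAi-labelled libraries, at 2.08, 2.12 and 2.06 CPM, lay just above L4440. With 40 to 71 counts per library the log2 fold change against L4440 was -0.59 ± 0.17 (SE, 95% interval -0.96 to -0.22), which did not pass (edgeR adjusted p = 0.164).

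The other genes among the 4 with the smallest p did not pass either. The endophilin gene unc-57 (WBGene00006791; chromosome I, 4675133 to 4679448, plus strand) had 175, 165 and 171 CPM in the lin-32 RNAi-labelled libraries, against 157 and 162 CPM in L4440. The groups did not overlap, yet the log2 fold change was 0.091 ± 0.036 (SE, 95% interval 0.013 to 0.17, edgeR adjusted p = 0.320), a small difference seen against tight libraries. The synaptogyrin gene sng-1 (WBGene00004912; chromosome X, 7327601 to 7329705, plus strand), a tetraspan protein of the vesicle membrane, had 0.70, 0.65 and 0.86 CPM in the lin-32 RNAi-labelled libraries, against 1.45 and 0.84 CPM in L4440. The groups overlapped, since the 2 L4440 libraries stood far apart. Its log2 fold change was -0.61 ± 0.32 (SE, edgeR adjusted p = 0.467), with -0.19 without L4440 replicate 1 and -0.98 without L4440 replicate 2.

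**Figure D3:**
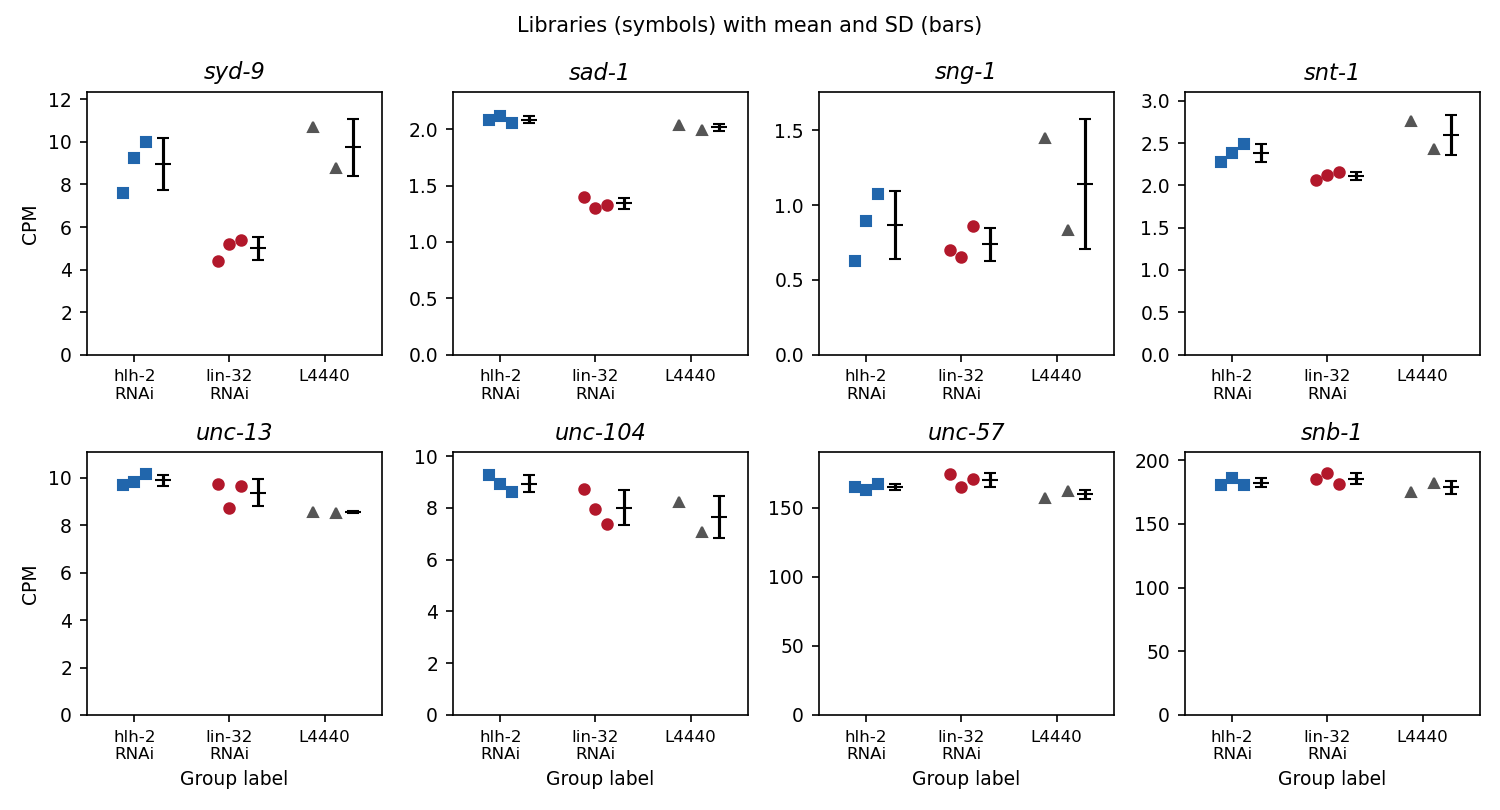
CPM of 8 genes in each library (symbols), with the group mean and SD beside them, on axes that start at 0; panels are not on a common scale. In syd-9 and sad-1 the 3 lin-32 RNAi-labelled libraries lie below all others, in sng-1 the 2 L4440 libraries differ by most of the range, and in unc-57 and snb-1 the groups differ by a few percent.

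By role, the 6 active zone genes had a median log2 fold change of -0.12 in the lin-32 RNAi-labelled libraries, and 5 of 6 lay below 0. They ran from sad-1 through unc-10 at -0.32 ± 0.21 (SE), which encodes the RIM scaffold, syd-1 at -0.18 ± 0.32 (SE), the ubiquitin ligase gene rpm-1 at -0.058 ± 0.089 (SE) and the liprin gene syd-2 at -0.056 ± 0.058 (SE) to unc-13 above 0. The 3 calcium channel genes all lay below 0 and had a median of -0.14. Of these, unc-2 (WBGene00006742; chromosome X, 2710920 to 2763526, minus strand), the channel of neurotransmitter release, stood at -0.21 ± 0.12 (SE, edgeR adjusted p = 0.523). The auxiliary subunit gene unc-36 and egl-19 stood at -0.14 ± 0.15 and -0.081 ± 0.091 (log2, SE). None of these 9 genes passed the test.

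Vesicle fusion genes had a median of 0.054 over 7. Here snt-1, the calcium sensor synaptotagmin, was the lowest at -0.29 ± 0.15 (SE, edgeR adjusted p = 0.474), with 2.06, 2.12 and 2.16 CPM in the lin-32 RNAi-labelled libraries against 2.77 and 2.43 CPM in L4440. The highest was the release inhibitor tomosyn, tom-1, at 0.11 ± 0.079 (SE, edgeR adjusted p = 0.627). Syntaxin, SNAP-25, UNC-18 and complexin genes lay between these, and the sign of ric-4 (0.074) was reversed without L4440 replicate 1 (-0.013). The 4 genes of vesicle identity and transport had a median of -0.070, the 5 of dense core vesicles -0.11, the 4 of endocytosis 0.015 and the 3 axonal and neuron-wide genes 0.037. Within the dense core group the processing enzymes egl-3 and egl-21 stood at 0.065 and 0.068, and ida-1, ric-19 and unc-31, which act on the vesicle itself or its release, at -0.11, -0.19 and -0.22. No gene in these 5 groups passed.

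Over all 33 genes the median log2 fold change between the lin-32 RNAi-labelled libraries and L4440 was -0.034, against 0.0015 over all tested genes, and 20 of 33 lay below 0, against 49.4% of all tested genes. Libraries did not overlap in 12 of the 33, against 29.8% of all tested genes. Of these, 9 were lower in the lin-32 RNAi-labelled libraries (27.3%, against 15.4% of all tested genes), namely egl-19, ric-19, sad-1, snt-1, syd-9, unc-10, unc-2, unc-31 and unc-36, and 3 were higher (tom-1, unc-13 and unc-57, against 14.4%). An unadjusted p under 0.05 was reached by 3 of 33 genes (sad-1, syd-9 and unc-57) and by 12.6% of all tested genes. The whole 95% interval lay within 0.25 of 0 in 12 genes, within 0.5 in 24 and within 1 in 31, so changes over 2-fold lay outside the intervals of all but syd-9 and sng-1.

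**Figure D4:**
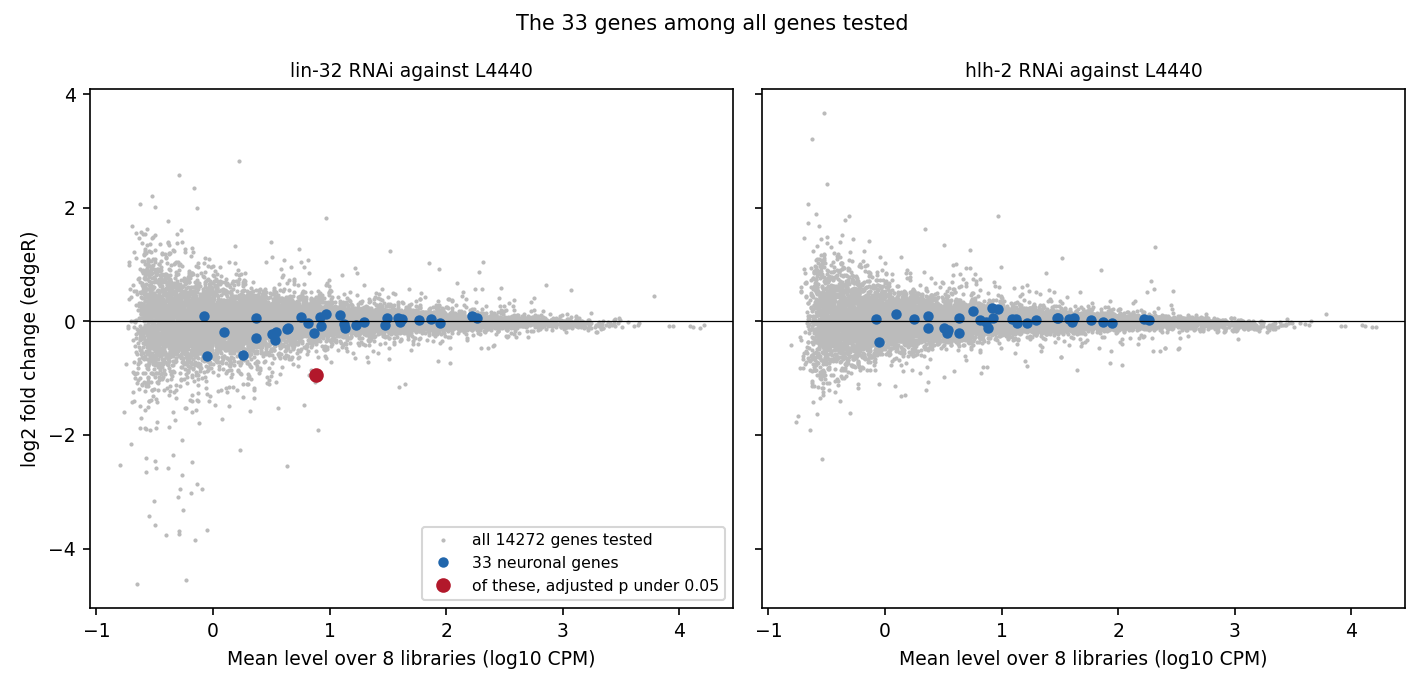
Log2 fold change against the mean level of each gene over 8 libraries (log10 CPM), for lin-32 RNAi against L4440 and for hlh-2 RNAi against L4440. Grey points are all 14272 tested genes, blue the 33 neuronal genes and red the gene of these that passed; the blue points lie inside the grey cloud, and syd-9, at -0.95, lies below most of it.

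The genes that stood lower in the lin-32 RNAi-labelled libraries were mostly scarce ones. The split was made after the values were seen and is given as a description. Of the 17 genes at or below 2.77 CPM per kilobase, 13 lay below 0, with a median log2 fold change of -0.18. All 9 genes that were lower without overlap were among them, against 15.8% of the 4934 tested genes at such levels, whose median was -0.011. Of the 16 genes above that level 7 lay below 0, with a median of 0.028, and 0 were lower without overlap, against 15.2% of the 9238 tested genes above it, whose median was 0.0032. These levels are per kilobase, while the error of an estimate follows the counts. The gene rpm-1, among the scarce ones, had 394 to 576 counts and an SE of 0.089. The gene cpx-1, above the cut, had 45 to 88 counts and an SE of 0.18. Why the lower genes were mostly scarce was not tested. The test was passed by 1 of these 17 genes and by 39 of the 4934.

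The 33 genes lie on all 6 chromosomes, 6 on I, 5 on II, 4 on III, 5 on IV, 5 on V and 8 on X. The 8 on X were aex-3, sad-1, sng-1, syd-2, syd-9, unc-10, unc-18 and unc-2. Of these, 7 lay below 0 in the lin-32 RNAi-labelled libraries, with a median log2 fold change of -0.27, where all 2112 tested genes on X had a median of 0.0092 and 47.8% lay below 0. The 25 on the autosomes had a median of -0.0040, with 13 below 0. This split, too, was looked at after the values were known, and it overlaps the split by level, since 6 of the 8 genes on X (all but syd-2 and unc-18) were among the 17 scarce genes.

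Set directly against each other, the hlh-2 RNAi-labelled and lin-32 RNAi-labelled libraries differed in syd-9 and in no other of the 33 genes by the edgeR test, which 0.406% of all tested genes passed. DESeq2 and limma-voom called the same 1 of 33, against 0.638% and 0.406% of all tested genes. An unadjusted p under 0.05 was reached by 3 of 33 genes (sad-1, syd-2 and syd-9), against 7.97% of all tested genes. This comparison uses no L4440 library for its estimate. With the CPM values given above, syd-9 was 1.79-fold higher in the hlh-2 RNAi-labelled libraries, a log2 difference of 0.84 ± 0.13 (SE, 95% interval 0.57 to 1.12, edgeR adjusted p = 0.011). The call was lost without replicate 2 of hlh-2 RNAi (0.82, edgeR adjusted p = 0.068) or replicate 2 of lin-32 RNAi (0.87, edgeR adjusted p = 0.070).

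The kinase gene sad-1 was next, with all 3 hlh-2 RNAi-labelled libraries above all 3 labelled lin-32 RNAi and a gap between the groups wider than the spread within either. Its log2 difference was 0.64 ± 0.15 (SE, 95% interval 0.32 to 0.96) and did not pass (edgeR adjusted p = 0.116). It passed when these 6 libraries were fitted alone with the replicate number as a block (0.64, edgeR adjusted p = 0.031), a fit chosen after the data were seen. Over the alternatives that keep a filter, the adjusted p of sad-1 ran from 0.031 to 0.647, the highest from DESeq2.

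Then came syd-2 and unc-2. The liprin-alpha gene syd-2 (WBGene00006364; chromosome X, 10549106 to 10555239, minus strand), a scaffold on which active zones assemble, had 30.4, 32 and 31 CPM in the hlh-2 RNAi-labelled libraries, against 27.1, 29.7 and 29.3 CPM in the lin-32 RNAi-labelled libraries. The groups did not overlap, at a log2 difference of 0.12 ± 0.051 (SE, edgeR adjusted p = 0.585), or 0.078 without lin-32 RNAi replicate 1. The channel gene unc-2 had 7.26, 9.0 and 7.13 CPM in the hlh-2 RNAi-labelled libraries, against 6.77, 7.09 and 6.38 CPM in the lin-32 RNAi-labelled libraries. These groups came close without overlapping, at a log2 difference of 0.21 ± 0.11 (SE, edgeR adjusted p = 0.682). Without hlh-2 RNAi replicate 2 it was 0.091.

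In this comparison all 6 active zone genes and all 3 calcium channel genes lay above 0, with median log2 differences of 0.12 and 0.19. Fusion genes had a median of 0.021, vesicle identity genes 0.10, endocytosis genes -0.020, dense core genes 0.038 and axonal genes 0.015. Over the 33 genes 24 lay above 0, against 49.3% of all tested genes, with a median of 0.048 against -0.0015. The libraries did not overlap in 6 genes, against 13.7% of all tested genes, all higher in the hlh-2 RNAi-labelled libraries (egl-19, sad-1, snt-1, syd-2, syd-9 and unc-2), against 6.81% of all tested genes, and 0 were lower without overlap, against 6.87%. Of the 17 scarce genes 15 lay above 0 and 2 below (11.8%), with a median of 0.14. Of the 4934 tested genes at such levels 46.15% lay below 0, with a median of 0.025. The split by level was made after the values were seen. The lin-32 RNAi-labelled libraries here are those already set against L4440. The patterns by role and by level in this comparison are therefore not independent of those described there.

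**Figure D5:**
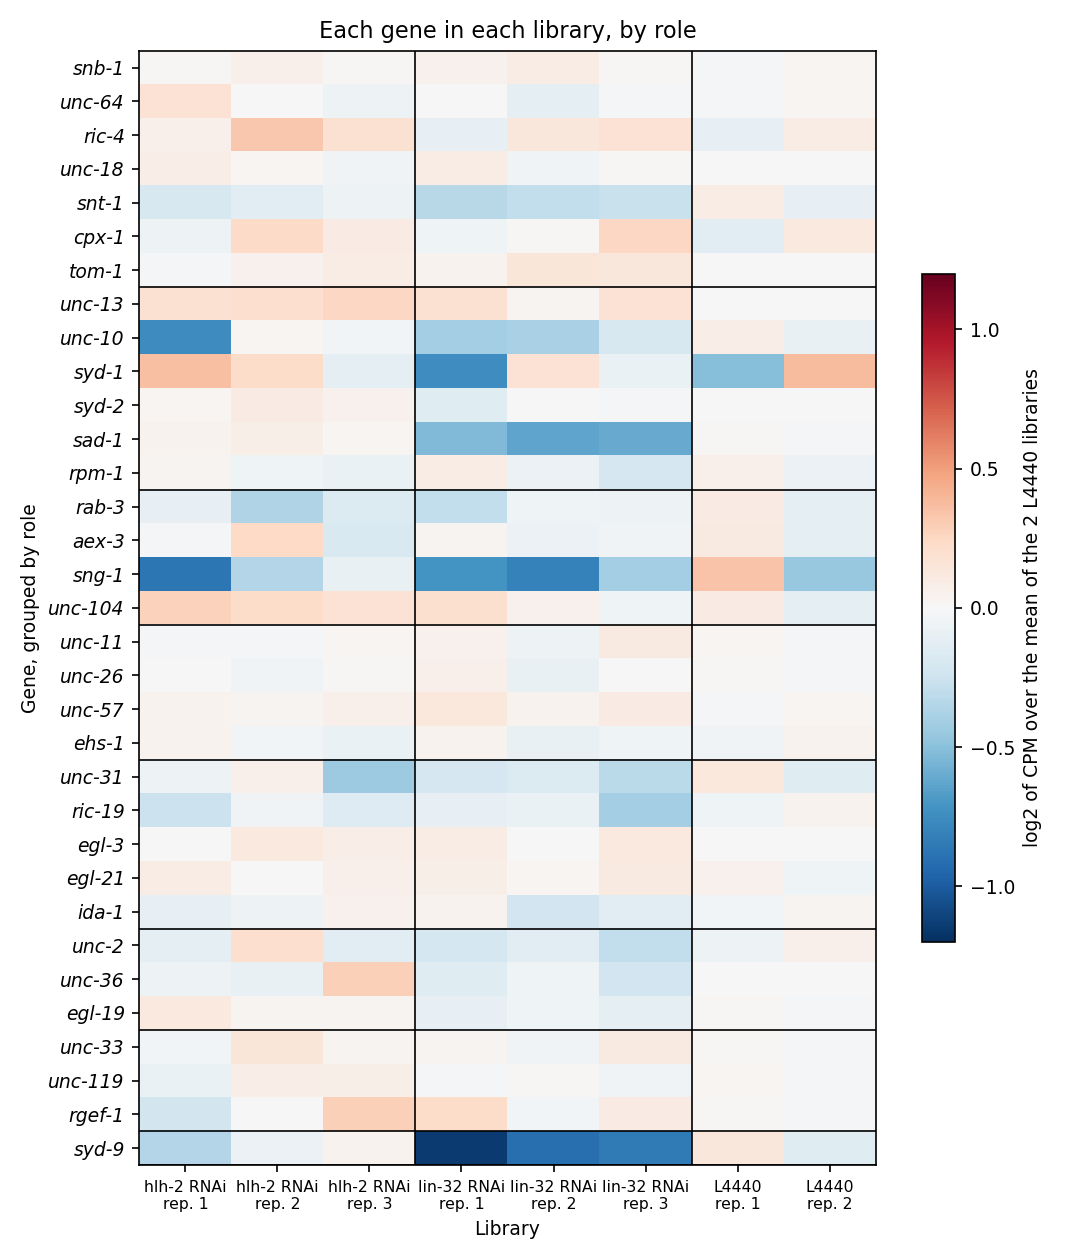
Log2 of each gene's CPM over the mean of the 2 L4440 libraries, with 1 column per library and genes grouped by role; blue is lower and red higher. The syd-9 and sad-1 rows are blue in all 3 lin-32 RNAi columns, while the sng-1 and syd-1 rows vary as much within groups as between them.

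The highest and lowest values of the 33 genes were spread over all 8 libraries, as the map of the genes by library shows. The number of the 33 genes with their highest value in a library was 4, 8 and 4 in the hlh-2 RNAi-labelled libraries, 4, 2 and 3 in the lin-32 RNAi-labelled libraries and 6 and 2 in L4440. Their lowest values fell 5, 1 and 3 times in the hlh-2 RNAi-labelled libraries, 4, 7 and 5 times in the lin-32 RNAi-labelled libraries and 5 and 3 times in L4440. Summed over the 33 genes, levels were 909.5 to 919.5 CPM in the hlh-2 RNAi-labelled libraries, 890.5 to 924.2 CPM in the lin-32 RNAi-labelled libraries and 895.7 to 899.9 CPM in L4440. The largest parts of these sums came from snb-1 (175.3 to 190.1 CPM per library) and unc-57 (157.3 to 174.8 CPM). The sums therefore say little about the scarce genes.

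A wider list of 75 synaptic and axonal genes outside the 33, of which 74 matched a symbol in the table and 73 were tested, gave 0 calls with edgeR in each of the 3 comparisons. At an unadjusted p under 0.05 there were 1 for hlh-2 RNAi against L4440 (aex-6, higher), 11 for lin-32 RNAi against L4440 (6 higher and 5 lower) and 9 for hlh-2 RNAi against lin-32 RNAi (8 higher and 1 lower). These are 1.37%, 15.1% and 12.3% of the list, against 6.78%, 12.6% and 7.97% of all tested genes. limma-voom called 0 in each, and DESeq2 called syg-2 in lin-32 RNAi against L4440. The median log2 fold changes were 0.028, 0.0028 and 0.030 in that order of comparisons.

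In lin-32 RNAi against L4440 the smallest p values of this list belonged to syg-2 and cla-1. The immunoglobulin superfamily gene syg-2, which marks where a synapse forms, had 4.36, 5.62 and 5.61 CPM in the lin-32 RNAi-labelled libraries, against 8.03 and 7.59 CPM in L4440. It did not overlap between the groups, and stood at -0.58 ± 0.12 on the log2 scale (SE, edgeR adjusted p = 0.055). It passed with DESeq2 (adjusted p = 0.037). The clarinet gene cla-1, which encodes a large active zone protein, had 1.53, 1.10 and 1.43 CPM in the lin-32 RNAi-labelled libraries, against 2.49 and 2.03 CPM in L4440. Its log2 fold change was -0.74 ± 0.21 (SE, edgeR adjusted p = 0.152). Between the hlh-2 RNAi-labelled libraries, at 2.54, 2.53 and 2.03 CPM, and the lin-32 RNAi-labelled libraries its log2 difference was 0.81 ± 0.18 (SE, edgeR adjusted p = 0.099), which passed in the 6 libraries alone with the replicate block (edgeR adjusted p = 0.0063). The ankyrin gene unc-44, next in that comparison, differed by 0.13 ± 0.036 (log2, SE, edgeR adjusted p = 0.217) and passed with the same block (edgeR adjusted p = 0.024).

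In the hlh-2 RNAi-labelled libraries the smallest p against L4440 belonged to the Rab27 gene aex-6, at 0.40 ± 0.16 (log2, SE, edgeR adjusted p = 0.691), and to the axonal transport gene unc-14, at 0.098 ± 0.046 (log2, SE, edgeR adjusted p = 0.743). Of 14 genes that make or carry neurotransmitters, all tested, 0 passed with edgeR, DESeq2 or limma-voom in any comparison and 1 (7.14%) had an unadjusted p under 0.05 in each. Of all tested genes 6.78% did for hlh-2 RNAi against L4440, 12.6% for lin-32 RNAi against L4440 and 7.97% between the RNAi groups. For lin-32 RNAi against L4440, 8 of the 14 lay above 0, against 50.6% of all tested genes, with a median log2 fold change of 0.020. The 2 with the smallest p lay below 0 and had few counts. The acetylcholine transporter gene unc-17, with 19 to 35 counts per library, stood at -0.61 ± 0.26 (log2, SE, edgeR adjusted p = 0.363). The GABA transporter gene unc-47, with 8 to 16 counts, stood at -0.56 ± 0.38 (log2, SE, edgeR adjusted p = 0.614). In the hlh-2 RNAi-labelled libraries the serotonin transporter gene mod-5 stood at 0.64 ± 0.30 (log2, SE, edgeR adjusted p = 0.736) and the decarboxylase gene bas-1 at -0.16 ± 0.081 (log2, SE, edgeR adjusted p = 0.761). Between the hlh-2 RNAi-labelled libraries and lin-32 RNAi bas-1 differed by -0.20 ± 0.071 and unc-47 by 0.66 ± 0.32 (log2, SE, edgeR adjusted p = 0.470 and 0.643).

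Markers of other tissues were read in the same libraries, since every tissue contributes to whole-worm RNA, and no marker was at 0 in all libraries. Germline genes, 12 tested, summed to 5500 to 5525 CPM in the hlh-2 RNAi-labelled libraries, 5201 to 5591 CPM in the lin-32 RNAi-labelled libraries and 5751 to 5801 CPM in L4440. All 12 lay below 0 in both comparisons with L4440, against 50.3% of all tested genes for hlh-2 RNAi and 49.4% for lin-32 RNAi. The medians were -0.057 for hlh-2 RNAi and -0.061 for lin-32 RNAi, and 0 passed with edgeR. Since both comparisons share the same L4440 libraries, the second is not an independent repeat of the first. At an unadjusted p under 0.05 there were 1 for hlh-2 RNAi (8.33%, against 6.78% of all tested genes) and 5 for lin-32 RNAi (41.7%, against 12.6%). The helicase gene glh-1 of the P granules stood at -0.12 ± 0.056 in the hlh-2 RNAi-labelled libraries and at -0.20 ± 0.056 in the lin-32 RNAi-labelled libraries (log2, SE, edgeR adjusted p = 0.743 and 0.150), the second of which passed with DESeq2. The smallest p for hlh-2 RNAi belonged to the chromosome axis gene htp-3, at -0.096 ± 0.036 (log2, SE, edgeR adjusted p = 0.647). Muscle genes, 16 tested, summed to 2213 to 2397 CPM in the hlh-2 RNAi-labelled libraries, 2346 to 2443 CPM in the lin-32 RNAi-labelled libraries and 2380 to 2383 CPM in L4440. The pharyngeal myosin gene myo-2 stood at -0.15 ± 0.063 against L4440 in the hlh-2 RNAi-labelled libraries (log2, SE, edgeR adjusted p = 0.693), and the body wall myosin gene myo-3 at -0.23 ± 0.049 in the lin-32 RNAi-labelled libraries (log2, SE, edgeR adjusted p = 0.057). In the direct comparison 10 of the 16 muscle genes lay below 0, with a median of -0.026, while myo-3 passed between the RNAi groups, at 0.24 ± 0.043 (log2, SE, edgeR adjusted p = 0.031), a call lost when any 1 library was left out (edgeR adjusted p from 0.0504 to 0.163).

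Intestine genes, 12 tested, summed to 1722 to 1804 CPM in the hlh-2 RNAi-labelled libraries, 1803 to 1992 CPM in the lin-32 RNAi-labelled libraries and 1874 to 1956 CPM in L4440. Against L4440, 6 of the 12 lay below 0 for hlh-2 RNAi and 3 for lin-32 RNAi. The aspartyl protease gene asp-1 was the lowest for hlh-2 RNAi, at -0.30 on the log2 scale, and passed with DESeq2 and limma-voom but not with edgeR. The protease gene cpr-1 rose against the same L4440 libraries in the hlh-2 RNAi-labelled libraries (0.57 ± 0.087 log2, SE, edgeR adjusted p = 0.020) and in the lin-32 RNAi-labelled libraries (0.56 ± 0.087 log2, SE, edgeR adjusted p = 0.012). Both calls were lost without L4440 replicate 1 (edgeR adjusted p = 0.334 and 0.151) or replicate 2 (0.350 and 0.116), and the first also without replicate 3 of hlh-2 RNAi (0.053). Hypodermis and seam genes, 10 tested, summed to 262.1 to 280.9 CPM in the hlh-2 RNAi-labelled libraries, 272.7 to 289.3 CPM in the lin-32 RNAi-labelled libraries and 274.3 to 286.2 CPM in L4440. Against L4440, 6 of the 10 lay below 0 for hlh-2 RNAi and 7 for lin-32 RNAi, against 50.3% and 49.4% of all tested genes. The median log2 fold changes were -0.029 and -0.19. Between the RNAi groups 7 lay above 0, against 49.3% of all tested genes, with a median log2 difference of 0.25.

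Within the hypodermal list the cuticle collagen gene rol-6 had 15, 14 and 18 counts in the hlh-2 RNAi-labelled libraries, 4, 1 and 0 counts in the lin-32 RNAi-labelled libraries and 19 and 19 counts in L4440. It was lower in the lin-32 RNAi-labelled libraries than in L4440 (edgeR adjusted p = 0.012) and than in the hlh-2 RNAi-labelled libraries (edgeR adjusted p = 0.040). The first call was lost without either L4440 library or without replicate 2 of lin-32 RNAi (edgeR adjusted p from 0.058 to 0.107), and the second without any 1 library other than replicate 1 of lin-32 RNAi (edgeR adjusted p from 0.052 to 0.210). Glia genes, 5 of 7 tested, and 3 coelomocyte genes gave 0 calls with edgeR, DESeq2 and limma-voom, and at an unadjusted p under 0.05 there was 1 glia gene in each comparison with L4440 (vap-1 for hlh-2 RNAi and fig-1 for lin-32 RNAi). Each is 20% of the glia genes tested, against 6.78% of all tested genes for hlh-2 RNAi and 12.6% for lin-32 RNAi. The part of these tissues in the values of syd-9 and sad-1 was not tested.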

How the data were processed

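RNA-seq libraries of whole N2 worms were made with TruSeq RNA v2 after QIAzol extraction, per the labels' protocols. The deposited values are raw counts per gene, made by the authors with TopHat2 2.1.0 on WBcel235 and featureCounts 1.4.6-p4, per the submitters' processing notes; their annotation release was not given in the sources used. WormBase IDs were named from Ensembl release 115. Counts of all 8 libraries entered 1 edgeR 4.0.16 quasi-likelihood fit (R 4.3.3, TMM, default low-count filter by group, 14272 genes) with 3 contrasts and Benjamini-Hochberg adjustment at 0.05; an SE is the log2 fold change over the root of F. The procedure was tested on simulated data.

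The 33 genes and the 8 other lists were chosen with earlier results of these data known. Full values are given for genes past the threshold, the 4 with the smallest p per comparison, unc-13 and unc-104; of other lists, genes past the threshold or up to 2 with the smallest p.

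Same-numbered hlh-2 and lin-32 RNAi libraries deviated together from their group means (r = 0.265, 0.194 and 0.191 across genes), which would pair those 6 libraries by number. The main fit held the group only, without a replicate block, so its comparison of the RNAi groups does not use this pairing. The pairing comes from the data, since no label names a day or batch they share. L4440 libraries did not deviate with their numbers (r from -0.165 to -0.0368). Alternatives covered 2 filters, 2 scalings, DESeq2 1.42.0, limma-voom (limma 3.58.1), fewer groups, the replicate block and each library left out.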

Additional observations from a re-analysis of the deposited data

Results flagged for a closer look

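The zinc finger gene syd-9 differed between the RNAi groups, at 7.62, 9.27 and 10.02 CPM in the hlh-2 RNAi-labelled libraries and 4.39, 5.20 and 5.41 CPM in the lin-32 RNAi-labelled libraries (log2 difference 0.84, edgeR adjusted p = 0.011), which is the test of the difference between the effects of both treatments against L4440. In the kinase gene sad-1 all hlh-2 RNAi-labelled libraries lay above both L4440 libraries and all lin-32 RNAi-labelled ones below them, at a log2 difference of 0.64 that did not pass (edgeR adjusted p = 0.116). The same arrangement was seen in the calcium channel gene egl-19, with 9.14, 8.61 and 8.60 CPM in the hlh-2 RNAi-labelled libraries, 7.88, 8.14 and 7.84 CPM in the lin-32 RNAi-labelled libraries and 8.53 and 8.31 CPM in L4440, at a log2 difference of 0.14 (edgeR adjusted p = 0.714). In both genes the hlh-2 RNAi-labelled libraries nearly touched L4440, at 2.06 against 2.04 CPM in sad-1 and 8.60 against 8.53 CPM in egl-19. These gaps are smaller than the average counting error, 13.9% in sad-1 and 6.35% in egl-19. How many of all tested genes show this arrangement was not counted.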

How the results depend on the processing

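The counts over all genes moved most. For lin-32 RNAi against L4440, hlh-2 RNAi against L4440 and hlh-2 RNAi against lin-32 RNAi, in that order, they were 610, 223 and 342 with no filter beyond 1 count, 176, 49 and 91 with DESeq2, 350, 72 and 132 with the replicate block, and 17 to 157, 3 to 31 and 25 to 93 with 1 library left out; the 2 RNAi groups alone with the replicate block, chosen after the data were seen, gave 386. Of the 33 genes, 0 to 1, 0 to 0 and 0 to 1 passed with 1 library left out, and 2 with the 2 RNAi groups alone and the block. Of the 73 other synaptic and axonal genes, 2 passed for lin-32 RNAi against L4440 and 1 for hlh-2 RNAi against lin-32 RNAi with no filter, 1 for lin-32 RNAi against L4440 with DESeq2 and with the replicate block, 2 with the 2 RNAi groups alone and the block, and 0 to 0, 0 to 0 and 0 to 1 with 1 library left out. The median log2 fold change of the 33 genes ran from -0.039 to -0.0066, 0.013 to 0.037 and 0.017 to 0.093 with 1 library left out, and was 0.057 for hlh-2 RNAi against L4440 on library size alone, where the median of all genes was 0.026. Single-gene fold changes were followed over the alternatives for the 10 genes of the 33 that are given with full values. Among these, signs turned only for differences that did not pass. With 1 library left out, ric-4 in lin-32 RNAi ran from -0.013 to 0.18, unc-104 in lin-32 RNAi from -0.035 to 0.18, sng-1 in hlh-2 RNAi from -0.73 to 0.059, syd-9 in hlh-2 RNAi from -0.25 to 0.032 and unc-2 in hlh-2 RNAi from -0.12 to 0.063, all against L4440; unc-2 was also 3.6e-04 with no filter, 0.023 on library size alone and 0.047 with the replicate block. The replicate block over all libraries changed no call among the 33 genes. The causes were not tested. The lowest counts were 19 for sng-1 and syd-1 and 18 for rgef-1, and depth limits what these can show.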
